A study of Mus musculus with 6 samples.

Results

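The 7 genes described here encode 3 small families of epithelial regulators: the Grainyhead-like transcription factors Grhl1, Grhl2 and Grhl3, the zinc finger factors Ovol1 and Ovol2, and the splicing regulators Esrp1 and Esrp2. They were named with earlier results of these data known, and every probe set annotated to 1 of them alone was read, whatever its signal level. This gave 12 probe sets of 45037 on the array once 64 controls were set aside, and 11 of the 12 passed the filter on low signal. The RNA came from dissociated bladder epithelium of mice at postnatal day 7, amplified in 2 rounds and hybridised to 6 Affymetrix mouse arrays: 3 carried RNA of DsRed-positive cells and 3 that of DsRed-negative cells. Both groups had the same strain label (FVB/N x C57BL/6), the same labelled sex (male) and the same reported gene, given as B6;129P-Upk1btm1Zhang/J, and the arrays of each group were numbered 1, 2 and 5. The sample titles call the DsRed-positive arrays uroplakin positive (+ve) and the DsRed-negative arrays uroplakin negative (-ve). The labels do not say how the fractions were parted, which promoter drove DsRed, or whether each array stands for an animal of its own. The p-values therefore reflect the spread among these samples, which may be technical.

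Grainyhead-like factors bind DNA through a conserved domain and switch on genes of cell junctions and of the epithelial barrier. Grhl3 is known in the bladder for its part in the terminal differentiation of superficial urothelial cells. Ovol factors are repressors that hold down regulators of the mesenchymal state, among them Zeb1, and Esrp proteins bind pre-mRNA and direct the epithelial splice forms of transcripts such as Fgfr2, Cd44, Ctnnd1 and Enah.

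Upk1b, the uroplakin gene of the urothelial surface that the labels name, was higher in DsRed-positive cells by a log2 change of 4.27 ± 0.48 (SE; adjusted p = 0.00105 by limma). Each of 14 general epithelial genes lay above the control level on at least 1 of the 3 DsRed-negative arrays, though not necessarily on all of them. Their summed deposited signal was 420501 to 664703 on DsRed-positive and 49163 to 123182 on DsRed-negative arrays. The control level was the 95th percentile of 27 unspiked bacterial control probe sets, 7.41 to 8.03 on the normalized log2 scale. Summed signal of 11 fibroblast and matrix genes ran the other way, 17114 to 31449 on DsRed-positive and 955065 to 1973012 on DsRed-negative arrays, with 11 of 11 lower. Genes of leukocytes (8 of 8), endothelium (5 of 6) and smooth muscle and mural cells (5 of 7) were lower too. Without both arrays numbered 1, these counts were 6 for leukocytes, 3 for endothelium and 6 for smooth muscle and mural cells. Of 5 nerve and Schwann cell genes none was lower and 1 higher, and none was called without both arrays numbered 1. In bulk RNA of this kind, fewer cells of a type and less RNA per cell cannot be told apart. The arrays numbered 1 stood apart from their sex label in both groups: Xist had a log2 signal of 15.48 and 15.08 there against 8.08 to 8.89 on the other 4 arrays, and the Y-linked Eif2s3y 5.44 and 6.32 against 11.78 to 12.93. Results are therefore also given without both arrays numbered 1. Of 14222 genes, 1310 passed the test as higher and 1603 as lower; the higher ones made up 45% of calls here, 37.6% on the deposited scale and 64.7% after centring of array medians.

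All 7 regulators were higher in DsRed-positive cells. The fitted log2 changes ran from 1.49 for Ovol2 to 4.98 for Esrp2, with a median of 3.92 against 0.035 over all tested genes. Calls in this direction were made for 9.21% of all genes (limma, Benjamini-Hochberg adjusted p under 0.05). The 3 DsRed-positive values lay above the 3 DsRed-negative values for each of the 7 genes, a pattern that 22.0% of all genes shared. Of the 11 probe sets tested, 8 were called higher, none lower, and 3 were not called, beside 8.63% of all probe sets called higher and 8.62% called lower. The 3 without a call belong to Grhl2 and Esrp2, each of which had another probe set that was called. The genes were named with earlier results of these data known, so these counts describe them and are no independent test. Without both arrays numbered 1, the call was kept by 6 of the 7, beside 3.36% of all genes.

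**Figure D1:**
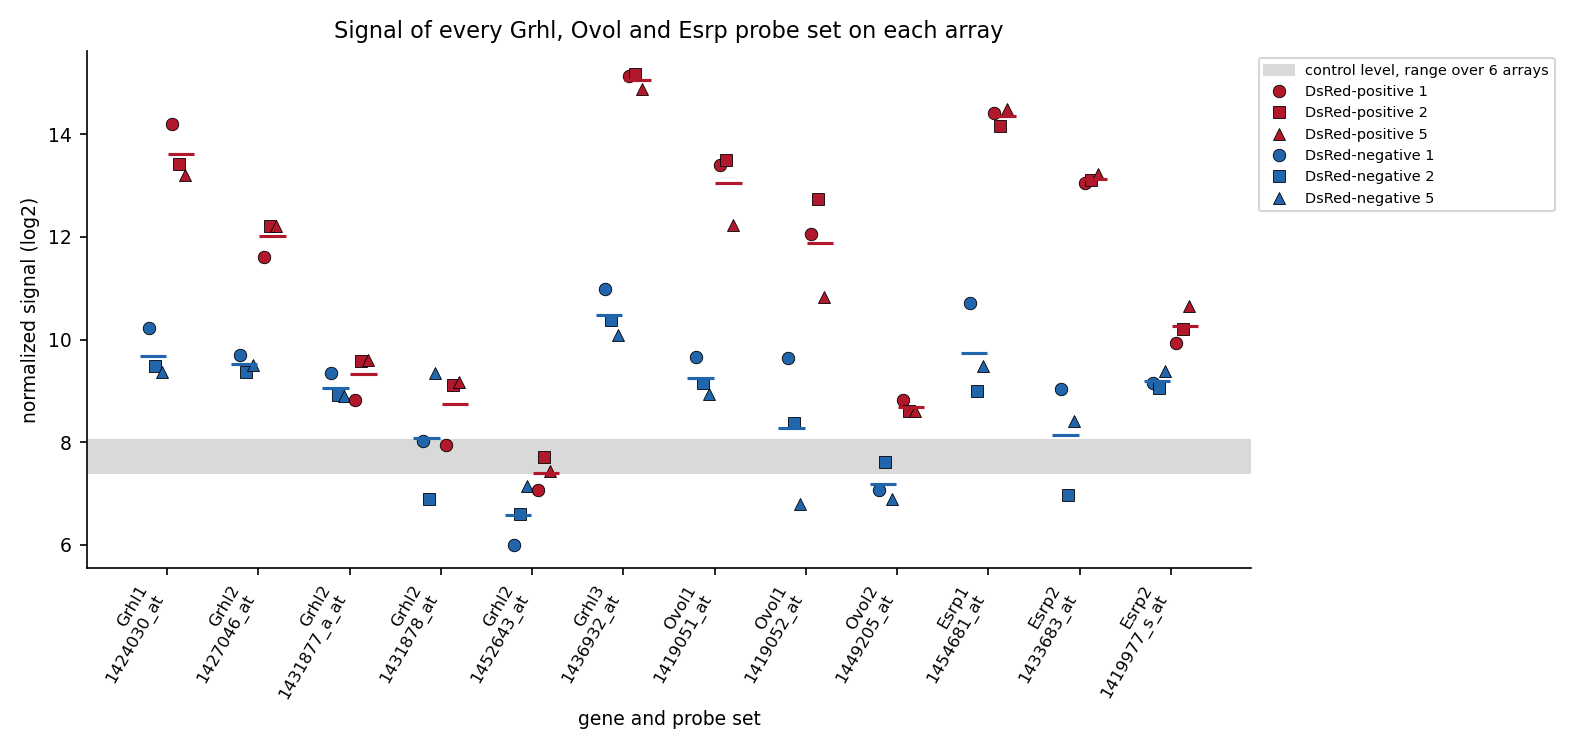
Normalized log2 signal (y axis) of the 12 probe sets (x axis) on each of the 6 arrays, red for DsRed-positive and blue for DsRed-negative, with the marker shape giving the array number, short bars the group means and the grey band the control level over the arrays (7.41 to 8.03). Red and blue are separate for 9 probe sets, and 3 of the 4 Grhl2 probe sets overlap.

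Grhl3, the grainyhead factor tied to superficial cell differentiation, was higher in DsRed-positive cells and varied little among their arrays. Its deposited signal was 28571, 37629.9 and 29575 on DsRed-positive arrays 1, 2 and 5, and 1948, 1367 and 1096 on DsRed-negative arrays 1, 2 and 5. The lowest DsRed-positive array thus stood far above the highest DsRed-negative one, and the gap between them was 3.90 on the normalized log2 scale. Normalized means were 15.05 ± 0.16 and 10.49 ± 0.45 (SD, n = 3). The fitted change was 4.57 ± 0.36 on the log2 scale (SE), 23.7-fold, with a limma adjusted p = 2.50e-04. All 3 DsRed-negative arrays were above the control level for Grhl3.

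Grhl1, which acts in skin on desmosomal genes, was also higher in DsRed-positive cells. Its deposited signal was 17756, 11339 and 9551 on DsRed-positive arrays 1, 2 and 5, and 1162, 778 and 688 on the DsRed-negative arrays. Number 1 was the highest array of both groups. Normalized means were 13.60 ± 0.52 and 9.69 ± 0.46 (SD, n = 3). Grhl1 thus rose by 3.92 ± 0.42 on the log2 scale (SE), 15.1-fold, with a limma adjusted p = 8.64e-04.

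Grhl2, the family member most often linked to E-cadherin and claudin expression, had 4 probe sets that did not move alike. On the brightest, 1427046_at, the deposited signal was 3392, 4774 and 4818 in DsRed-positive and 818, 724 and 759 in DsRed-negative arrays, without overlap. Normalized means were 12.01 ± 0.34 and 9.52 ± 0.17 (SD, n = 3), and this probe set rose by 2.49 ± 0.34 (SE), 5.61-fold (limma adjusted p = 0.00247). On 1431877_a_at the deposited signal was 330, 638 and 715 against 648, 556 and 504, so that the groups overlapped, and the value was 0.28 ± 0.37 (adjusted p = 0.650). Probe set 1431878_at gave 154, 430.4 and 509 against 258, 101 and 678, again with overlap, and a value of 0.66 ± 0.66 (adjusted p = 0.535). The last, 1452643_at, was above the control level on 2 DsRed-positive arrays and on no DsRed-negative array, and it was too dim to be tested. When probe sets were averaged per gene instead of taking the brightest, the Grhl2 value was 1.14 and its call was lost (adjusted p = 0.0649).

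Promoter sequences of 3 of the 7 genes, Grhl1, Grhl3 and Ovol2, were used (RefSeq, GRCm38.p6), and those of Grhl2, Ovol1, Esrp1 and Esrp2 were not used here. Each sequence ran from 250 bases before to 50 bases after a transcript start. Whether promoter letters go with the size of a gene's change was not tested. In all, 4 motifs were searched on both strands: CAGGTG, the E-box that Zeb and Snail repressors bind; AACCGGTT, the full Grainyhead site, and AACNGGTT, which contains it; and CCGTTA, the core of Ovo sites. Capitals mark matches to CAGGTG, read as CACCTG on the other strand.
Grhl3, chr4:135573583-135573882, minus strand: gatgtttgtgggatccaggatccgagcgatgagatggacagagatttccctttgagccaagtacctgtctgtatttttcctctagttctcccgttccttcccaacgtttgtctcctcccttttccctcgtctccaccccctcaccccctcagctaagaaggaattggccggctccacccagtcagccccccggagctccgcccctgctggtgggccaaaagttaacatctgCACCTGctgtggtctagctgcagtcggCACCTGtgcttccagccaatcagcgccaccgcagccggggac
Grhl1, upstream start, chr12:24572037-24572336, plus strand: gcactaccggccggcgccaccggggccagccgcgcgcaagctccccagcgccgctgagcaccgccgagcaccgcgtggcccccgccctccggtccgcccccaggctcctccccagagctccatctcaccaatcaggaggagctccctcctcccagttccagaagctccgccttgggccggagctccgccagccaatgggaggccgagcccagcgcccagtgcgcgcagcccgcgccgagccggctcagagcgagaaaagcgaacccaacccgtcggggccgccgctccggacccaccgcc
Ovol2, chr2:144331313-144331612, minus strand: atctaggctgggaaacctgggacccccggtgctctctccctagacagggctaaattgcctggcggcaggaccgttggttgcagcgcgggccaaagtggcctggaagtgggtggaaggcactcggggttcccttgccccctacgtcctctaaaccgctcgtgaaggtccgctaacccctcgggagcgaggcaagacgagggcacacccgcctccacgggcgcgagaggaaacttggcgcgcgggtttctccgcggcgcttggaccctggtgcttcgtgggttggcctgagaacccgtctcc
The Grhl3 promoter held 2 such E-boxes, the first beginning 19 bases before the transcript start and the second after it. Among all 32851 promoters of the same length, 20.2% held at least 1 and 2.88% held 2 or more. Neither the Ovol2 promoter nor either of the 2 Grhl1 promoters held one. The full Grainyhead site (0.146% of all promoters), the form with a free base (2.09%) and the Ovo core (2.76%) had no match in these 4 promoters. The upstream Grhl1 promoter was 75.3% G and C, the Ovol2 promoter 65.7% and the Grhl3 promoter 58.3%. Matches are descriptions of the letters and not binding sites.

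Ovol1 rose on both of its probe sets. On 1419051_at the deposited signal was 11221, 12119 and 4864 on DsRed-positive arrays 1, 2 and 5, and 793, 637 and 517 on the DsRed-negative arrays. Array 5 was the lowest of the DsRed-positive group, and its normalized value was still 2.57 above the highest DsRed-negative one on the log2 scale. Normalized means were 13.04 ± 0.71 and 9.25 ± 0.37 (SD, n = 3), and the rise was 3.79 ± 0.45 (SE), 13.9-fold (limma adjusted p = 0.00131). The second probe set, 1419052_at, had a deposited signal of 4614, 6970.1 and 1768 against 782, 389 and 87.5. It spread more widely in both groups, with array 5 lowest in each. Its log2 change was 3.60 ± 0.78 (adjusted p = 0.0187), and the adjusted p became 0.0796 without DsRed-positive 1, 0.0714 without DsRed-positive 2, 0.0698 without both arrays numbered 1 and 0.0998 without both numbered 2.

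Ovol2, the Ovol factor best known for holding embryonic and mammary epithelium in an epithelial state, had the smallest fitted change of the 7. Its deposited signal was 333, 286 and 320.0 on the DsRed-positive arrays and 119, 215 and 97.3 on the DsRed-negative ones. All 3 DsRed-negative values lay at or below the control level of their array, and all 3 DsRed-positive values lay above theirs. On the normalized scale, the DsRed-positive mean of Ovol2 was 1.83-fold above the mean control level of the DsRed-negative arrays. In deposited signal those control levels were 203, 230 and 268, closer to the DsRed-positive values. The fitted log2 change was 1.49 ± 0.34 (SE, limma adjusted p = 0.0229). This call was lost on the deposited scale (0.101). Leaving out 1 array also ended it in 5 of 6 fits, the adjusted p running from 0.0528 (without DsRed-negative 1) through 0.0574 (without DsRed-negative 5), 0.0719 (without DsRed-positive 5) and 0.0732 (without DsRed-positive 2) to 0.0952 (without DsRed-positive 1). Without both arrays numbered 1 the value was 1.39 (adjusted p = 0.169).

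Esrp1 and Esrp2 both rose. For Esrp1 the deposited signal was 19889.7, 19085 and 22959 on DsRed-positive arrays 1, 2 and 5, and 1624, 579.9 and 749 on the DsRed-negative arrays. The DsRed-positive arrays were close to each other, and DsRed-negative 1 was well above the other DsRed-negative arrays. Normalized means were 14.36 ± 0.18 and 9.73 ± 0.88 (SD, n = 3). Esrp1 rose by 4.63 ± 0.48 (SE), 24.7-fold (limma adjusted p = 7.71e-04).

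Esrp2, the paralog of Esrp1, had 2 probe sets that gave changes of different size. On 1433683_at the deposited signal was 9066, 9160 and 9652 against 533, 111 and 355, without overlap. Normalized means were 13.12 ± 0.090 and 8.14 ± 1.06 (SD, n = 3), and the rise was 4.98 ± 0.54 (SE), 31.6-fold (limma adjusted p = 9.08e-04). DsRed-negative 2, with a normalized signal of 6.97, was below its control level of 7.69, so the size of this change rests partly on signal that was not above background. On 1419977_s_at the deposited signal was 900.4, 1050 and 1561 against 570, 600.4 and 701. The groups did not overlap there either, but the value was 1.07 ± 0.34 and was not called (adjusted p = 0.0722). The suffix _s_at is the manufacturer's mark for probes shared by several transcripts. With the mean of both probe sets, Esrp2 rose by 3.03 (adjusted p = 7.98e-04).

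**Figure D2:**
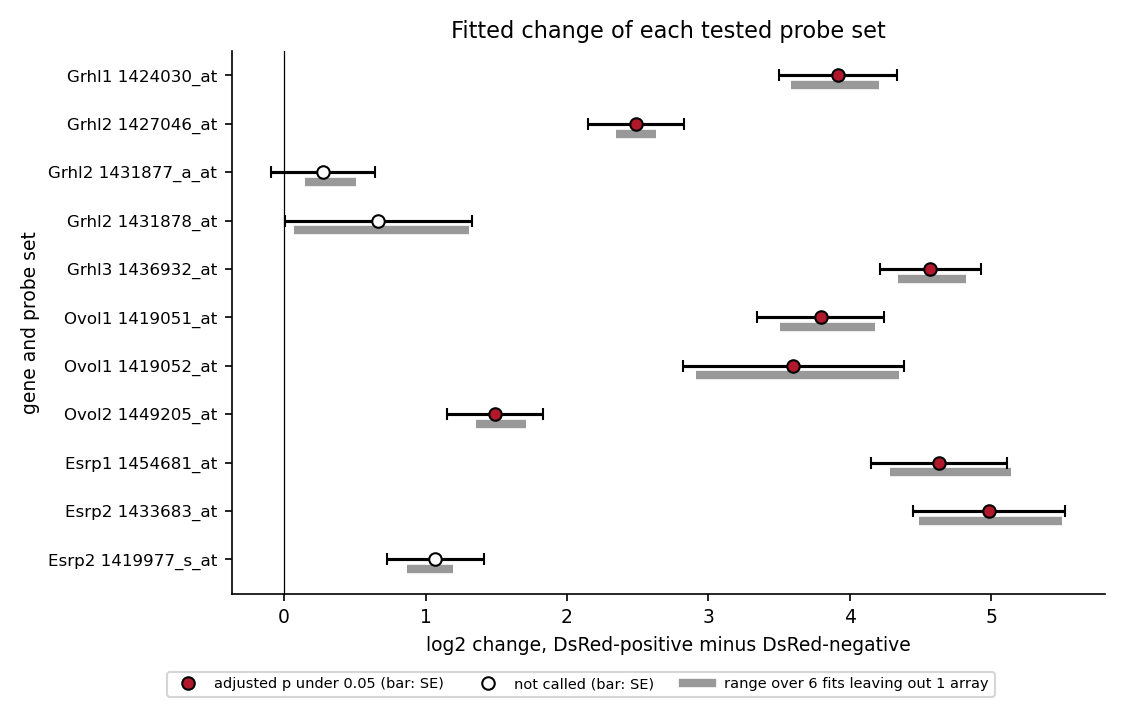
Fitted log2 change, DsRed-positive minus DsRed-negative (x axis), of the 11 tested probe sets (y axis), with bars for the SE, filled points for calls at an adjusted p under 0.05 and grey lines for the range over the 6 fits that leave out 1 array. The 8 called probe sets lie between 1.49 and 4.98, and the 3 others between 0.28 and 1.07.

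Grhl1, Grhl2 (1427046_at), Grhl3, Ovol1 (1419051_at), Esrp1 and Esrp2 (1433683_at) kept their calls in all 18 alternative fits of their probe sets. Without 1 array, the Grhl3 change ran from 4.34 to 4.82, that of Grhl1 from 3.58 to 4.20 and that of Grhl2 from 2.35 to 2.63. Over the same fits Ovol1 ran from 3.51 to 4.18, Esrp1 from 4.28 to 5.14 and Esrp2 from 4.49 to 5.50. The highest adjusted p among these fits was 0.0162, for Grhl2 without DsRed-positive 2.

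Members of a family were then compared by the size of their change, taking the difference between the genes' log2 values within each array, which also removes most of an array's scaling. Grhl3 changed more than Grhl2 by 2.08 ± 0.32 (SE, n = 3 against 3), with an exact two-sided permutation p = 0.1, the smallest that 3 arrays against 3 allow, and an adjusted p of 0.114 over the 8 pairs compared. Grhl1 exceeded Grhl2 (Grhl2 minus Grhl1 was -1.43 ± 0.53) and Ovol1 exceeded Ovol2 (2.30 ± 0.49), each again at the smallest exact p of 0.1, although the Ovol2 change is itself bounded by background. Grhl3 exceeded Grhl1 by 0.65 ± 0.27 and Ovol1 by 0.78 ± 0.32 (exact p = 0.1 for each), and the first of these rose to 1.01 without DsRed-positive 1. Grhl2 exceeded Ovol2 by 1.00 ± 0.40 and was below Esrp1 by a difference of -2.14 ± 0.48 (exact p = 0.1 for each). Esrp1 and Esrp2 differed by -0.36 ± 0.29 (exact p = 0.3), and by 0.13 with a larger offset. The 95% t intervals of Grhl3 minus Grhl1 (-0.083 to 1.39) and Grhl3 minus Ovol1 (-0.12 to 1.67) included 0. So did those of Grhl2 minus Grhl1 (-2.90 to 0.050), Grhl2 minus Ovol2 (-0.11 to 2.10) and Esrp1 minus Esrp2 (-1.17 to 0.45). The order within these pairs was not settled. The exact test could pass 0.05 for no pair with 3 arrays against 3. Each gene was represented here by its brightest probe set alone. The other tested probe sets gave 0.28 and 0.66 for Grhl2 (brightest 2.49), 1.07 for Esrp2 (4.98) and 3.60 for Ovol1 (3.79). Differences between genes therefore cannot be told apart from differences between probe sets.

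The DsRed-negative arrays were not empty of these transcripts. For 5 of the 7 genes (Grhl1, Grhl2, Grhl3, Ovol1 and Esrp1) all 3 DsRed-negative arrays lay above the control level. DsRed-negative 1 was the highest array of its group for 6 of the 7, Ovol2 being the exception, whereas the highest value fell on that array for 33% of all tested genes. The mean log2 signal of the 7 genes was 9.63 on DsRed-negative 1, 8.85 on 2 and 8.96 on 5. Uroplakins had means of 10.39, 9.71 and 9.33 on the same arrays, and general epithelial genes 11.67, 11.25 and 10.39, so that DsRed-negative 1 was highest in these lists as well. The part of epithelial cells in these values was not tested. Among DsRed-positive arrays the highest value was spread over numbers 1 (2 genes), 2 (2 genes) and 5 (3 genes), and the 7-gene means were 12.94, 12.88 and 12.69.

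**Figure D3:**
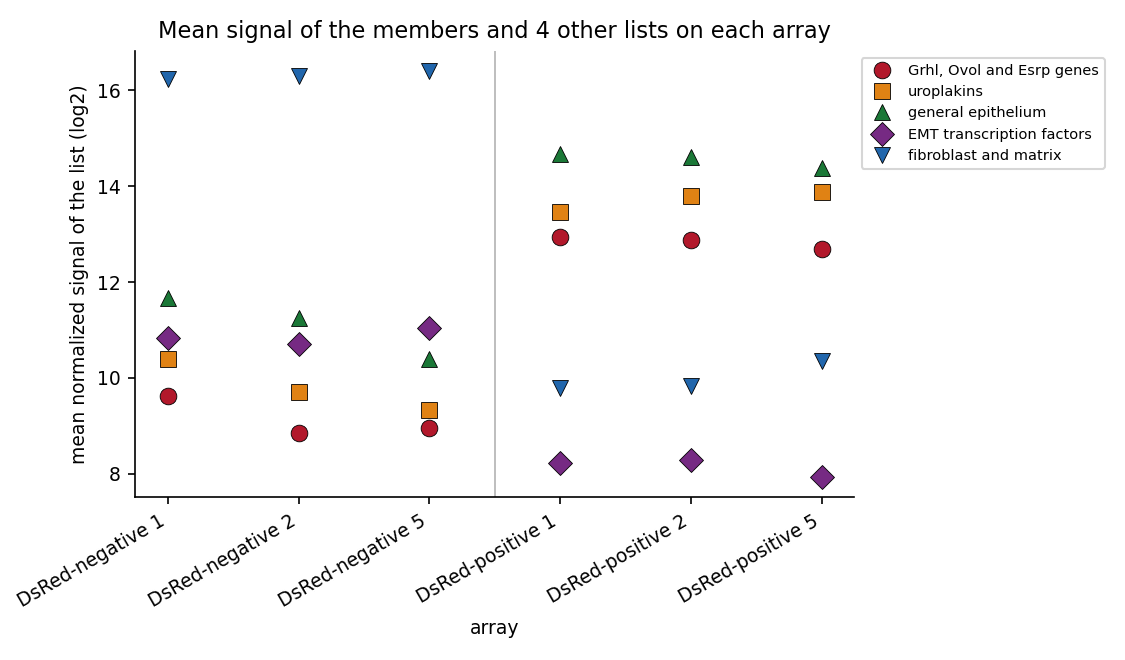
Mean normalized log2 signal (y axis) of the 7 Grhl, Ovol and Esrp genes and of 4 other lists on each of the 6 arrays (x axis). The 7 genes, the uroplakins and the general epithelial genes are high on the DsRed-positive arrays and the EMT factors and fibroblast genes are low there; among DsRed-negative arrays the 7 genes have means of 9.63, 8.85 and 8.96.

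Genes reported as targets of Grainyhead factors were mostly higher in the same cells. Of 14 such genes, 12 were tested and 10 were higher, none lower, beside 9.21% of all genes called higher. Their median log2 change was 3.74. Without both arrays numbered 1, 9 were higher, beside 3.36% of all genes. The serine protease Prss8 was at least 16.1-fold higher against the control level (adjusted p = 3.25e-04), and E-cadherin (Cdh1) rose by 4.73 ± 0.41 (SE; adjusted p = 3.67e-04). The junction protein Nectin4 rose by 4.18 ± 0.41 and the matriptase gene St14 by 3.45 ± 0.38. The transglutaminase gene Tgm1, a target tied to Grhl3 in epidermis, was not among them, with a value of 0.35 ± 0.56 (adjusted p = 0.715). Arhgef19 was not called either and leaned the other way, at -0.41 ± 0.31 (limma adjusted p = 0.407). Its normalized signal was 8.59 to 8.93 on DsRed-positive and 9.07 to 9.24 on DsRed-negative arrays. Cldn3 and Dsg1a were below the filter. Cdh1, Epcam and Cldn7 are also in the general epithelial list.

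Of 9 partners of Grhl3 and planar cell polarity genes, 6 were tested, 1 was higher and 1 lower, beside 9.21% and 11.3% of all genes, and none was called without both arrays numbered 1; the median log2 change was -0.45. The core polarity gene Vangl1 fell by 2.01 (SE 0.32; adjusted p = 0.00483, 0.0510 without both arrays numbered 1 and 0.0542 without both numbered 5), while its paralog Vangl2 gave -0.64 ± 0.42 and was not called. The cadherin Celsr2 was higher by 1.28 ± 0.35 (adjusted p = 0.0417), a call that ended in 5 of 6 fits when 1 array was dropped (0.152 without DsRed-positive 1). Scrib (0.84) and the cofactor Lmo4 (-0.65) were not called. In the CP2 branch of the same superfamily, Tfcp2l1 was higher by 3.05 ± 0.83 (adjusted p = 0.0428, but 0.147 without DsRed-positive 1, 0.112 without DsRed-negative 1 and 0.110 without either array numbered 5), and Tfcp2 (-1.21 ± 0.56) and Ubp1 (0.20 ± 0.41) were not called.

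Some transcription factors of the epithelial to mesenchymal transition (EMT), several of which Ovol and Grhl factors repress, were lower in DsRed-positive cells. Of 10 such genes, 9 were tested, 5 were lower (3 without both arrays numbered 1), 4 were not called and none was higher, beside 11.3% of all genes called lower; the median log2 change was -2.67. For Zeb1, the normalized signal was 14.17, 13.83 and 13.83 on DsRed-negative arrays 1, 2 and 5, and 6.49, 6.04 and 5.96 on the DsRed-positive arrays, all 3 of them below the control level. Zeb1 was at least 87.5-fold lower against that level (adjusted p = 7.43e-05). Zeb2 depended on the probe set: 3 of its 4 tested probe sets were called lower, by at least 8.51-fold on 1456389_at (adjusted p = 4.26e-04), while the brightest, 1458941_at, gave -0.89 ± 0.49 (adjusted p = 0.259).

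Among the other EMT factors, Twist2 changed by -4.19 ± 0.47 (adjusted p = 0.00111) and Twist1 by -2.87 ± 0.54 (adjusted p = 0.0106, and 0.119 without both arrays numbered 1). Tcf4 changed by -2.67 ± 0.32 on its brightest probe set (adjusted p = 0.00134). Of the 6 tested Tcf4 probe sets, 2 were called lower, and the changes of all 6 ran from -2.90 to -0.57. Prrx2 was at least 4.76-fold lower (adjusted p = 0.0144). Snai1 (-0.64), Snai2 (-0.15), Zeb2 on its brightest probe set and Prrx1 were not called. Of 9 mesenchymal marker genes, 7 were lower, beside 11.3% of all genes, with a median of -4.38, and 4 were lower without both arrays numbered 1. Fibronectin (Fn1) changed by -6.51 ± 0.41, Cdh11 by -6.49 ± 0.42 and vimentin (Vim) by -6.31 ± 0.44. The fibroblast genes given above were lower on the same arrays, and their part in these changes was not tested.

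Transcripts whose splicing Esrp proteins control were called about as often as genes in general. Of 12 such genes, 11 were tested, 1 was higher and 1 lower, beside 9.21% and 11.3% of all genes, and the median log2 change was 0.39. With array medians centred, 4 were higher, beside 18% of all genes called higher in that setting. Fgfr2, whose epithelial receptor form depends on Esrp proteins, had a value of -0.01 ± 0.31 (adjusted p = 0.984), with a normalized signal of 12.04 ± 0.045 (SD, n = 3) in DsRed-positive and 12.05 ± 0.18 in DsRed-negative cells. Cd44, a hyaluronan receptor, changed by -2.56 ± 0.50 (adjusted p = 0.0118, and 0.0983 without both arrays numbered 5), and the kinase gene Slk rose by 1.31 ± 0.31 (adjusted p = 0.0271), a call kept in 1 of 6 fits with an array left out; the value was 0.64 without DsRed-positive 5 (adjusted p = 0.360) and 0.47 with probe sets averaged or without both arrays numbered 5.

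Of 32 tested probe sets of these genes, 3 were higher and 2 lower, beside 8.63% and 8.62% of all probe sets, and no gene had calls both ways. For the p120 catenin gene Ctnnd1, probe set 1445830_at had a normalized signal of 9.39, 9.10 and 10.31 on DsRed-positive arrays and 6.53, 6.92 and 6.68 on DsRed-negative arrays, the latter all below the control level. It was at least 3.46-fold higher (adjusted p = 0.00284), while the brightest Ctnnd1 probe set gave 0.35 ± 0.39 (adjusted p = 0.576). For Enah, a regulator of actin filaments, 1421624_a_at rose by 1.64 ± 0.37 (adjusted p = 0.0218) and the brightest probe set gave 0.89 ± 0.33 (adjusted p = 0.105). Which exons these probe sets cover was not used here, so no splice form is assigned to them.

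Of 16 other splicing regulators, all tested, 2 were higher and 1 lower, again near the shares of all genes, with a median log2 change of 0.21. With array medians centred, 5 were higher, beside 18% of all genes in that setting. Rbm47, an RNA-binding protein of epithelia, rose by 4.00 ± 0.48 (adjusted p = 0.00137), and 2 of its 2 tested probe sets rose. Khdrbs3 was at least 3.04-fold lower (adjusted p = 0.00158), but fell below the filter without DsRed-negative 5. Mbnl3 was higher on all 3 of its tested probe sets, by 2.47 ± 0.70 on the brightest (adjusted p = 0.0493, but not called in 5 of 6 fits with an array left out, at 0.145 without DsRed-positive 1). Rbfox2, often set against Esrp proteins in studies of EMT, gave 0.21 ± 0.34 on its brightest probe set (adjusted p = 0.717). On 1418245_a_at it was lower by a log2 change of -1.99 ± 0.37 (adjusted p = 0.0100). The other tested Rbfox2 probe sets leaned the same way without a call. They gave -2.64 ± 0.81 on 1418247_s_at (adjusted p = 0.0634) and -1.87 ± 0.95 on 1418246_at (adjusted p = 0.223).

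**Figure D4:**
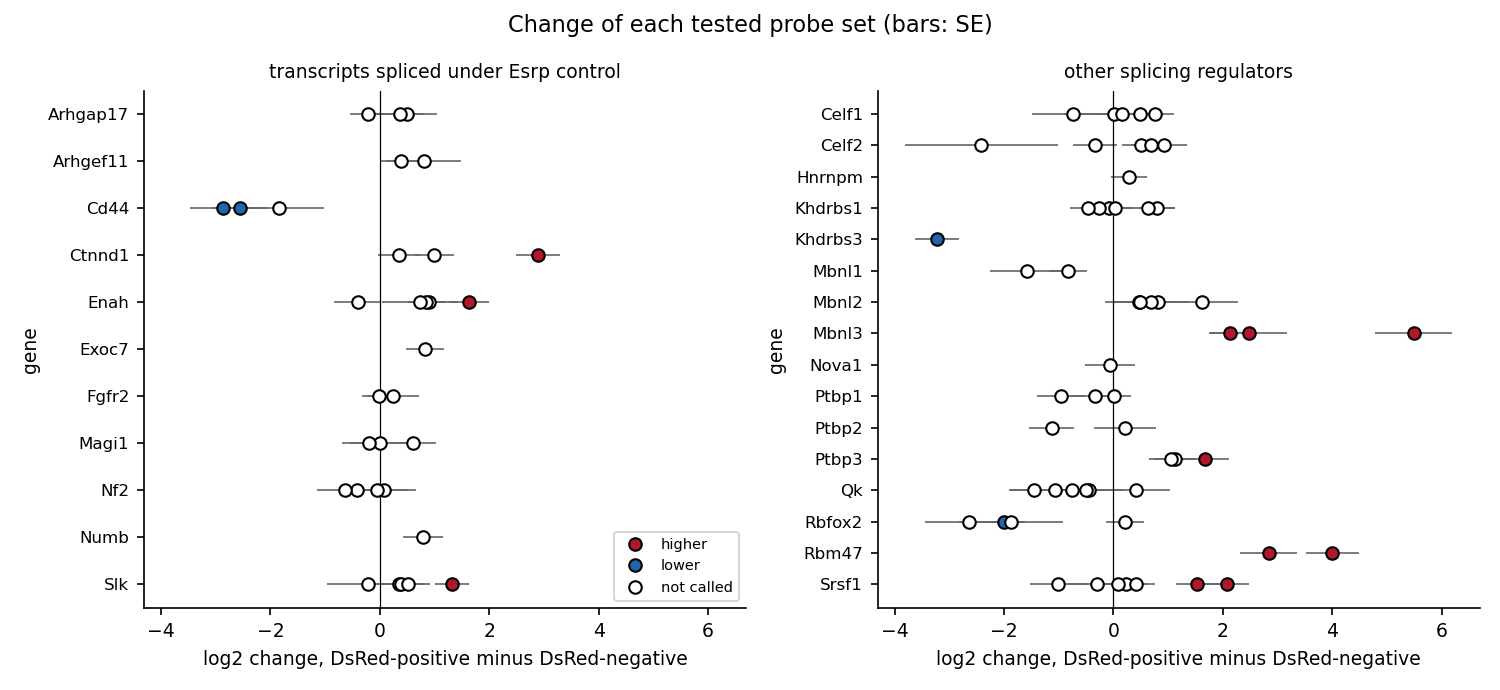
Log2 change, DsRed-positive minus DsRed-negative (x axis), of every tested probe set of 11 transcripts spliced under Esrp control (left) and of 16 other splicing regulators (right), 1 row a gene, with bars for the SE and colour for calls at an adjusted p under 0.05. Most points lie near 0. Among those farther out, Cd44, Khdrbs3 and Rbfox2 have points to the left. Rbm47, Mbnl3, Ctnnd1 and Srsf1 have points to the right.

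Of 15 other transcription factors of epithelia, 13 were tested, 9 were higher, 1 was lower and 3 were not called, beside 9.21% and 11.3% of all genes. Their median log2 change was 2.13, and 6 were higher without both arrays numbered 1, beside 3.36% of all genes. The ETS factor Elf5 was at least 16.7-fold higher (adjusted p = 4.04e-04), and the epidermal factor Zfp750 rose by 5.08 ± 0.49, Gata3 by 3.45 ± 0.41 and the nuclear receptor Pparg by 4.23 ± 0.52. Klf4 went the other way at -1.22 ± 0.33 (adjusted p = 0.0405), a call that ended whichever of the 6 arrays was dropped (0.128 without DsRed-positive 5). Of 6 uroplakins 6 were higher, 4 of them without both arrays numbered 1, and of 14 general epithelial genes 13 were higher, beside the same 9.21% of all genes. The medians of these 2 lists were 4.35 and 3.61, on either side of the 3.92 of the 7 regulators. These medians were not tested against each other.

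**Figure D5:**
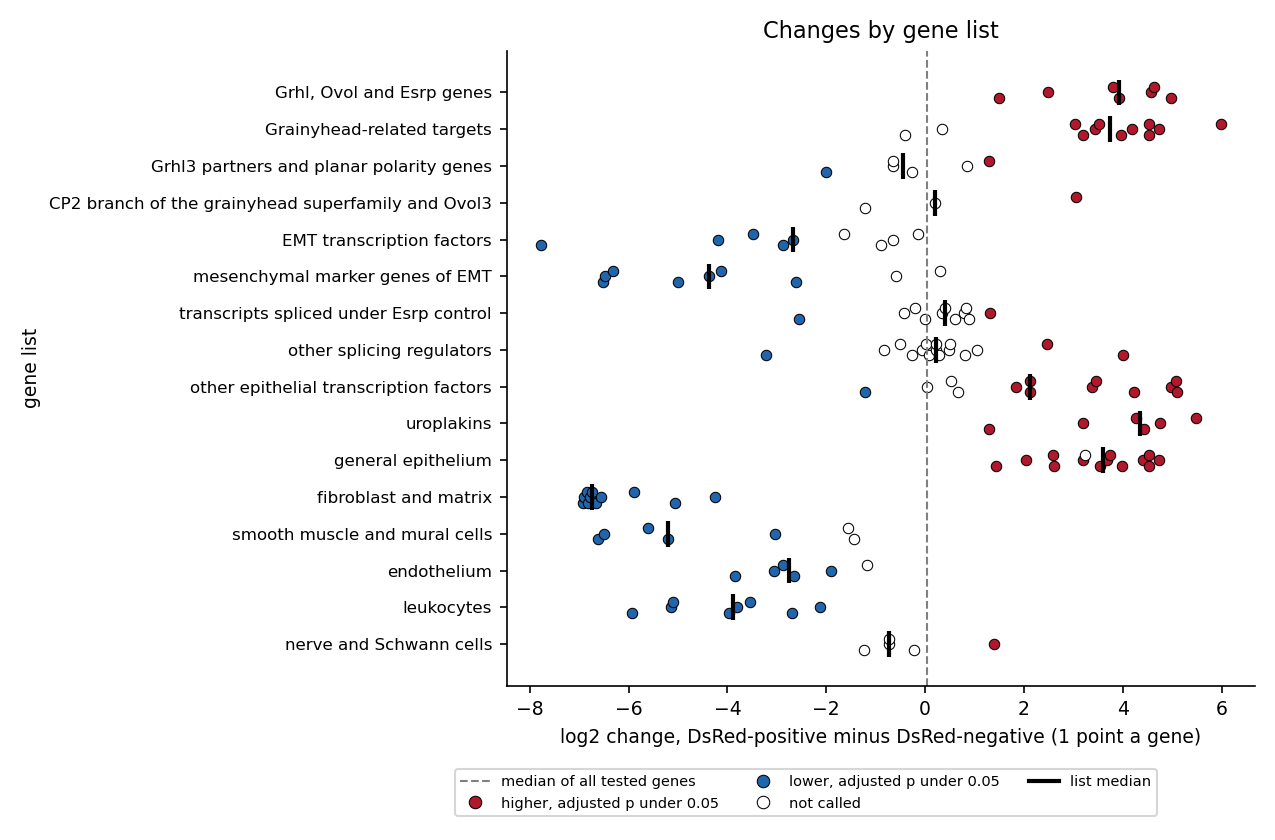
Log2 change, DsRed-positive minus DsRed-negative (x axis), of each tested gene in the 7-gene set and 15 other lists (y axis), with red for higher, blue for lower and white for no call at an adjusted p under 0.05, black bars for list medians and a dashed line for the median of all tested genes (0.035). The 7 regulators, the Grainyhead targets, the uroplakins and the general epithelial genes lie to the right, and the EMT, matrix, muscle, vessel and leukocyte genes to the left.

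The genes whose profiles were nearest to the mean of the 7 were then listed, by the root mean square difference of log2 profiles centred on each gene's mean over the 6 arrays. The nearest was Gpa33, a surface antigen of gut epithelium, at 0.128, followed by Tpd52l1 (0.133), Dock8 (0.174), the ammonia channel Rhbg (0.176) and the claudin Cldn4 (0.183). Abcc3, Tmem154, Galnt6, Krt18 and the tetraspanin Cd9 completed the 10, at 0.204 to 0.234. Their log2 changes ran from 3.37 for Cd9 to 4.04 for Tmem154. Within the set, Grhl1 lay closest to the mean (0.275) and Ovol2 farthest (1.17), and the closest pairs were Grhl1 with Ovol1 (0.341) and Esrp1 with Esrp2 (0.342). Nearest to single members were Dusp16 and Tmem154 for Grhl1, Paqr5 and Msln for Grhl2, Bace2 and Pof1b for Grhl3, and Rasef and Vsig2 for Ovol1. Those nearest to Ovol2 were Pdcl3 and Rab9, those nearest to Esrp1 were Aldh1a7 and Tmem45b, and those nearest to Esrp2 were Upk3a and Capn13.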

How the data were processed

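The authors deposited 1 linear probe set intensity per array; the submitters' processing notes name GCOS, and no settings or version of it are given in the sources used here. After trimming 2% at both ends, all deposited arrays had a mean of 1500.01, which is a shared scale. Values were moved to log2 after adding 39.84, their 20th percentile. Array medians then spanned 0.74 (limit 0.2), which led to quantile normalization. The added constant compresses changes of dim probe sets. Control probe sets were removed and those with a mean above the 33rd percentile (7.18) tested, 30175 in all, by limma 3.58.1 in R 4.3.3 (lmFit and eBayes, both groups sharing 1 spread) with Benjamini-Hochberg adjustment over all of them and a threshold of 0.05. Fitted log2 changes are given with SE. A gene was represented by its brightest probe set. Symbols came from the platform annotation, updated through gene IDs (34741 of 34945 probe sets with 1 symbol); 932 had several, and 9160 had none here. Where all arrays of a group lay at or below the control level, folds are given against its mean in that group (at least N-fold). These folds are on the normalized scale and make no allowance for the spread among arrays. The fit was tested on simulated data. The number of arrays limits the precision.

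The members and lists were chosen with earlier results of these data known. Genes were named by rule: all members, Upk1b, the 4 smallest p of each pathway list, members against their list, and the 10 nearest profiles with 2 for each member; other probe sets and genes were named after their values were seen. The numbers 1, 2 and 5 were not taken to pair the arrays in the main fit, since the labels do not say what they stand for. The data leave pairing possible. The correlation of deviations from the group means was 0.15, 0.037 and 0.053 between arrays of the same number, against -0.078 to 0.014 otherwise. Xist and Eif2s3y also set both arrays numbered 1 apart. With the number as a block, Ovol2 was not called (limma adjusted p = 0.0518). The alternatives were other scalings, offsets, filters, variance models and probe set choices, the number as a block, and fits without 1 array or both arrays of a number. Genes named in the lists without a probe set of their own here were not analysed.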

Additional observations from a re-analysis of the deposited data

How the results depend on the processing

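All 7 members kept their direction in every alternative run. The count of members called higher was 7 or 6 throughout, the loss being Ovol2 or, with probe sets averaged per gene, Grhl2. With the number as a replicate block, 6 members were called (Ovol2 reached an adjusted p of 0.0518), with 2123 probe sets higher and 2281 lower, against 2605 and 2600; every array correlated best with the array of its own number in the other group, a hint from the data and not from the design. Probe sets called higher numbered 4871 with each array centred on its median, and 1102 to 2586 without 1 array (lower: 1751 to 2354). Without both arrays numbered 1, 2 or 5, 926, 1343 and 991 were higher and 1253, 1849 and 1434 lower; the design then has fewer arrays. Centring moved the median change of all genes from 0.035 to 0.37 and the values as deposited to -0.17, and the members' median from 3.92 to 4.34 and 3.80. The difference of Grhl3 minus Grhl1 ran from 0.53 to 1.01 without 1 array, and that of Esrp1 minus Esrp2 was 0.13 with an offset at the 50th percentile. Values without a call that changed sign were Grhl2 1431877_a_at as deposited (-0.079), Grhl2 1431878_at without both arrays numbered 2 (-0.12), Ubp1 without 1 array (-0.12, without DsRed-negative 5, to 0.45) and without both arrays numbered 5 (-0.25), and Fgfr2 as deposited (0.12), centred (0.66), by mean probe set (0.12), without suffixes _s_at and _x_at (0.25), without both arrays numbered 1 (0.093) or 2 (0.0018), and without 1 array (-0.10 to 0.070, above 0 in 3 of 6 fits, at 0.0032 without DsRed-negative 2 and 0.011 without DsRed-positive 1); the cause was not tested. Signal near the control level limits Ovol2, and the spread among 3 arrays limits all sizes.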
